A study of Homo sapiens with 6 samples.

Results

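Annexins are calcium-dependent proteins that bind acidic phospholipids, and S100 proteins are small calcium sensors, several of which dock onto the N-terminal tail of an annexin. The set described here holds 7 annexin genes (ANXA1 to ANXA7) and 3 S100 genes (S100A6, S100A10 and S100A11), chosen by name, which are 10 of the 18544 genes in the count table. HMEC-1, an immortalised line of human dermal microvascular endothelial cells, was kept at 5.5 mM glucose and received a lentivirus carrying an shRNA. Set7KD cultures (n = 3) carried an shRNA against SETD7, also written Set7, a methyltransferase of histone H3 lysine 4 and of other proteins. NTC cultures (n = 3) carried a non-targeting shRNA and are the controls. Both groups are derived from a single cell line and all cultures were exposed to lentivirus. The comparison asks which of these transcripts differ when SETD7 is knocked down. In bulk RNA of this kind, fewer cells of a type and less RNA per cell cannot be told apart.

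In endothelium, the heterotetramer of annexin A2 and S100A10 is known as a cell-surface receptor for plasminogen and its activator and as a factor in the release of Weibel-Palade bodies, the storage granules for von Willebrand factor. Annexin A1, with S100A11 as its partner, acts on membranes and endosomes and limits leukocyte recruitment. Annexin A5 and annexin A6 coat membranes that expose phosphatidylserine, and several annexins take part in the repair of torn plasma membrane.

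The total gene count ran from 16385878 to 16953331 per library, and 1 count was worth 0.0585 to 0.0618 CPM, the unit used below, which scales counts by library size and composition. SETD7 was at 178 ± 2.18 CPM in NTC and 32.8 ± 9.59 CPM in Set7KD (SD, n = 3), with an edgeR adjusted p of 0.000927 and an exact two-sided permutation p of 0.1, the smallest that 3 libraries against 3 allow. Of the defining endothelial markers, CDH5 was at 206 ± 32.1 CPM in NTC and 119 ± 11.4 CPM in Set7KD. VWF was low at 9.7 ± 2.25 CPM in NTC and 10.1 ± 0.645 CPM in Set7KD. PECAM1, CLDN5 and MMRN1 were not analysed here. Of 9 tested endothelial markers 2 rose and 4 fell, with a summed level of 508 to 652 CPM in NTC and 402 to 442 CPM in Set7KD. The 2 that rose were KDR, from 17.3 ± 3.63 to 27.8 ± 3.39 CPM, and TEK, from 45.1 ± 2.08 to 58.8 ± 6.41 CPM. CDH5 was among the 4 that fell. Among 8 tested fibroblast markers 5 passed as higher and 0 as lower, and their sum went from a range of 1513 to 2080.0 CPM in NTC to a range of 3232 to 4194 CPM in Set7KD. COL1A1 made up most of that sum in every library, at 1555 ± 270.3 CPM in NTC and 2861 ± 395 CPM in Set7KD. For smooth muscle and pericytes 3 of 9 markers passed as higher and 0 as lower, with sums of 386 to 435 CPM in NTC and of 771 to 1076 CPM in Set7KD. TAGLN went from 96.3 ± 16.8 to 551 ± 116 CPM. ACTG2 also passed, from 0.941 ± 0.514 to 26.4 ± 7.32 CPM, as did CNN1, from 0.979 ± 0.484 to 9.16 ± 1.86 CPM. Both were near 1 CPM in NTC. ACTA2, MYH11, SMTN, PDGFRB, RGS5 and CSPG4 did not pass. Epithelial markers (3 tested, 0 higher, 1 lower) summed to 224 to 269 CPM in NTC and 231 to 251 CPM in Set7KD. Leukocyte markers (3 tested, 0 higher, 2 lower) summed to 38.6 to 39.4 and 24.0 to 31.5 CPM. DCN, FAP, DES, CDH1 and PTPRC were among the markers not analysed here, which included 6 of 10 epithelial and 7 of 10 leukocyte markers. Among the markers that were analysed, the number with a count of 0 in any library was 0. This count does not cover the markers that were not analysed. The share that passed was 66.7% of endothelial, 62.5% of fibroblast and 33.3% of smooth muscle and pericyte markers. It was 33.3% of epithelial and 66.7% of leukocyte markers, against 36.2% of all genes tested. The part of these markers in the results below was not tested.

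The members ran between 748 and 14443 counts per library, so all 10 passed the filter on low counts. A gene is said to have risen or fallen where the adjusted p of edgeR's quasi-likelihood test, taken over all genes tested, was under 0.05. By that rule 4 of 10 members rose, namely ANXA2, ANXA5, ANXA6 and S100A11, and 1 fell, S100A6. Of all 18482 genes tested 36.2% passed, 17.6% as higher and 18.6% as lower. The share of the members that passed was 50%, 40% as higher and 10% as lower. The median log2 fold change was 0.11 over the members and -0.01 over all genes tested, and the median absolute log2 fold change was 0.372 and 0.215. For 6 of 10 members the libraries of the groups were fully apart in CPM, against 47.4% of all genes tested. With only 10 members, these shares are a description of the list.

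**Figure D1:**
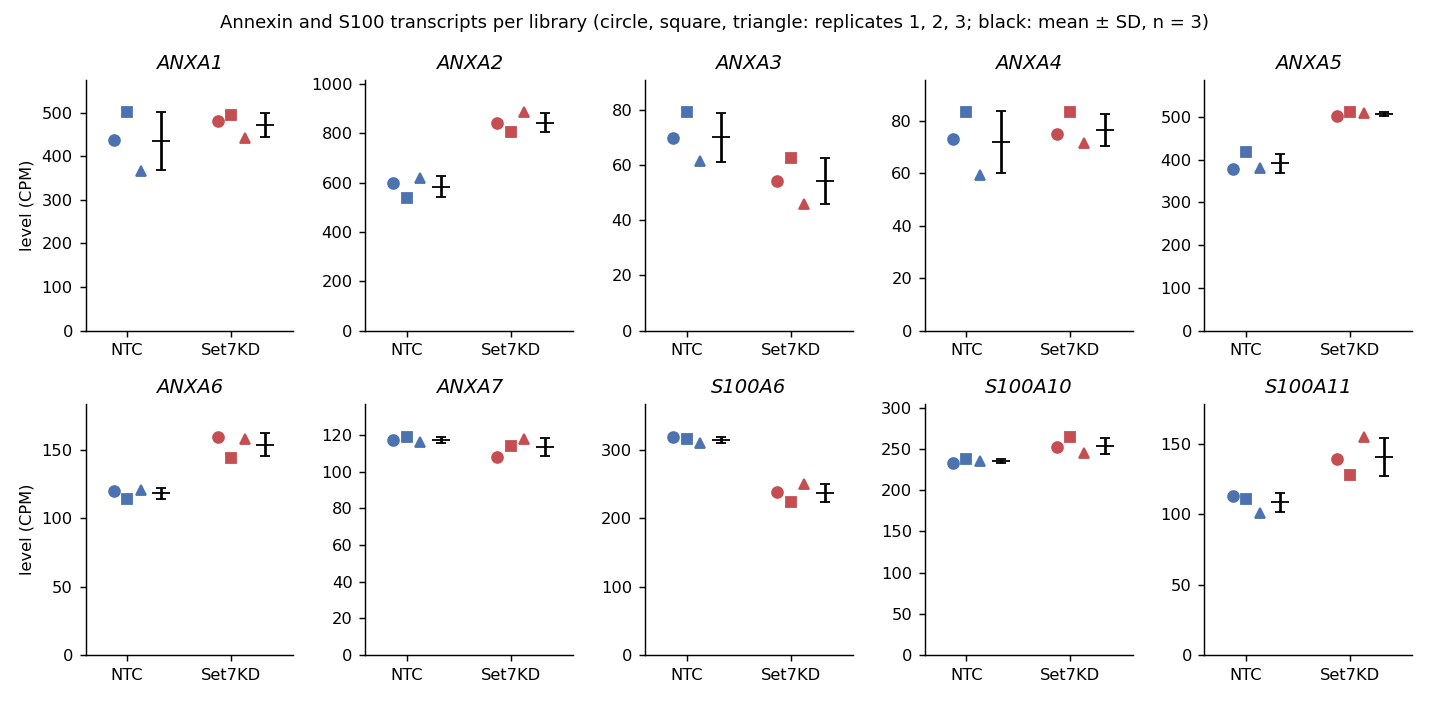
Level of each member in each library, in CPM on a linear axis from 0, with NTC in blue and Set7KD in red; circles, squares and triangles are replicates 1, 2 and 3, and the black marks are mean ± SD (n = 3). The Set7KD points lie above all NTC points for ANXA2, ANXA5, ANXA6, S100A10 and S100A11, below them for S100A6, and overlap them for ANXA1, ANXA3, ANXA4 and ANXA7.

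ANXA2, which encodes annexin A2, had the largest log2 fold change of the 10 members. Its level was 598, 537 and 618 CPM in the NTC libraries and 840.3, 807 and 885 CPM in the Set7KD libraries. Every Set7KD library was above every NTC library. The means were 584 ± 41.9 and 844 ± 38.9 CPM (SD, n = 3), a 1.44-fold difference, with a log2 fold change of 0.53 ± 0.06 (standard error; edgeR adjusted p = 1.09e-05).

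The table also lists 3 processed copies of ANXA2, which are intronless pseudogenes at other places in the genome: ANXA2P1, ANXA2P2 and ANXA2P3. They matter for the ANXA2 value because a read from the shared sequence fits more than a single row. The stretches that follow run from base 46 to base 135 of the ANXA2 coding sequence, counted from the A of the start codon, and are the first 90 bases that all 3 copies retain. They are transcript sequences from GENCODE 29, written 5′ to 3′, and a capital marks a base of a copy that differs from ANXA2.
ANXA2: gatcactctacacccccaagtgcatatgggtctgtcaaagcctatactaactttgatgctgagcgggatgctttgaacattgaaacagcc
ANXA2P2: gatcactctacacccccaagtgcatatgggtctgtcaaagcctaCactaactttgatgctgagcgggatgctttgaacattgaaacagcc
ANXA2P1: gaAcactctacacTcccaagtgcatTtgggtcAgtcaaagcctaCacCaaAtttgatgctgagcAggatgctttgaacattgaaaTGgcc
ANXA2P3: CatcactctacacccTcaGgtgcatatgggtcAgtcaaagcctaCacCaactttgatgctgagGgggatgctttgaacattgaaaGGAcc

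ANXA2P2 differs from ANXA2 at 1 of these 90 bases, and ANXA2P1 and ANXA2P3 at 10 each. Over the whole alignment with an ANXA2 transcript, ANXA2P2 was identical at 1004 of 1020 bases, or 98.4%. ANXA2P1 was identical at 869 of 926 bases (93.8%) and ANXA2P3 at 928 of 1007 (92.2%). Of all 36-base words of ANXA2P2, 68.3% also occur in an annotated ANXA2 transcript, so that a read of that length from them has no unique source. This share was 12.2% for ANXA2P1 and 3.6% for ANXA2P3. The sources used here do not give the read length.

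The counts on these copies rose with those on ANXA2. ANXA2P2 was at 279, 266 and 306 CPM in NTC and 423, 386 and 449 CPM in Set7KD, a log2 fold change of 0.56 (edgeR adjusted p of 1.24e-05). ANXA2P1 had a log2 fold change of 0.60 ± 0.08 and ANXA2P3 of 0.42 ± 0.10 (standard error). All 3 copies passed edgeR's test, although ANXA2P3 did not without Set7KD replicate 2 (adjusted p of 0.0762). For every 100 reads counted on ANXA2, ANXA2P2 held 46.7 to 49.6 in NTC and 47.8 to 50.7 in Set7KD. The copies together took 37.9 to 39.9% of the reads of the 4 rows in NTC and 38.9 to 39.4% in Set7KD, ranges that overlap. With the copies added to ANXA2, the sum was 962, 886 and 1028 CPM in NTC and 1387, 1320 and 1459 CPM in Set7KD. The log2 fold change of that sum was 0.53, as for ANXA2 alone, with an edgeR adjusted p of 1.37e-05. From which of the 4 loci the reads on the copies came was not tested.

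**Figure D2:**
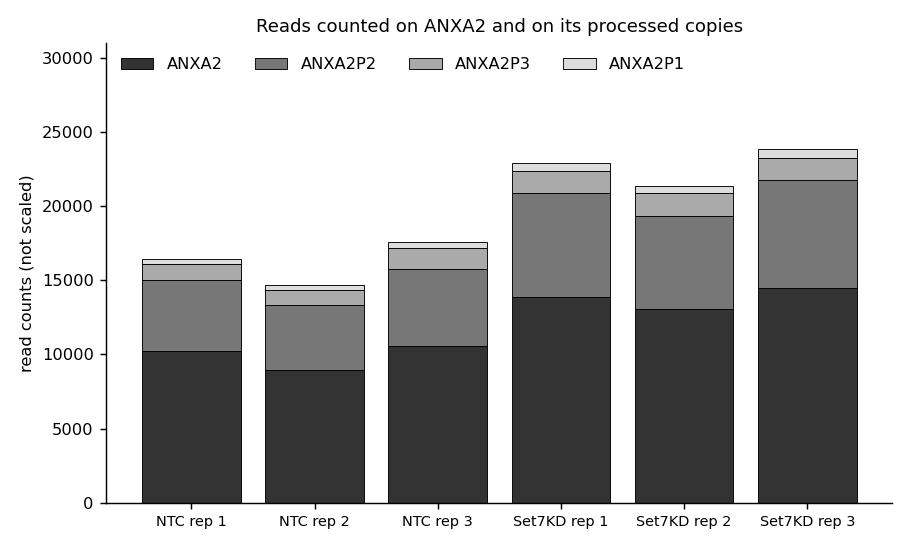
Read counts, not scaled for depth, on ANXA2 and on its 3 processed copies, stacked for each of the 6 libraries on an axis from 0. The stacks hold 14707 to 17576 reads in NTC and 21361 to 23825 reads in Set7KD, and the copies take 37.9 to 39.9% of each.

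S100A10, the partner of annexin A2 in the heterotetramer, moved less. It was at 233, 238 and 235 CPM in NTC and 252, 265 and 245 CPM in Set7KD. The groups did not overlap, but the difference was small, with a log2 fold change of 0.11 ± 0.05 (standard error; edgeR adjusted p = 0.107), which did not pass. When replicate numbers entered the model as blocks, its adjusted p was 0.0457. The ratio of S100A10 CPM to ANXA2 CPM was 0.39, 0.443 and 0.381 in NTC and 0.3, 0.329 and 0.277 in Set7KD. These ratios did not overlap between the groups and describe relative change only, since the rows differ in length and ANXA2 shares reads with its copies.

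ANXA5, which encodes annexin A5, the protein used in the laboratory to stain exposed phosphatidylserine, rose. Its level was 378, 417 and 379.8 CPM in NTC and 501, 510.2 and 509 CPM in Set7KD. The Set7KD libraries lay close together and above all NTC libraries. Set7KD differed from NTC on the log2 scale by 0.37 ± 0.05 (standard error; edgeR adjusted p = 8.01e-05).

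ANXA6 encodes annexin A6, which has a duplicated annexin core, and rose to a similar degree. It was at 119.8, 114 and 121 CPM in NTC and 159.7, 144 and 158 CPM in Set7KD, again with no overlap. The log2 fold change was 0.38 ± 0.06 (standard error; edgeR adjusted p = 9.29e-05).

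S100A11, the partner of annexin A1, rose from 113, 111 and 101 CPM to 139, 128 and 155 CPM. Set7KD replicate 3 was the highest library and NTC replicate 3 the lowest. In log2 units the change was 0.38 ± 0.07 (standard error; edgeR adjusted p = 0.000786), and it lay between 0.31 and 0.44 with any single library left out. Against a minimum fold of 1.2 rather than any difference, ANXA5, ANXA6 and S100A11 no longer passed, with adjusted p of 0.0617, 0.055 and 0.112, while ANXA2 and S100A6 did.

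ANXA1, the annexin that S100A11 binds, varied more between libraries than between groups. It was at 438, 501 and 367 CPM in NTC and 481, 495 and 442 CPM in Set7KD. The groups overlapped. On the log2 scale this difference was 0.12 ± 0.11 (standard error; edgeR adjusted p = 0.422). Without NTC replicate 2, the highest control, it was 0.23 with an adjusted p of 0.0301, and without NTC replicate 3, the lowest, it was 0.0096 with an adjusted p of 0.934.

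S100A6, also called calcyclin, binds several annexins and the calcyclin-binding protein, and was the member that fell. Its level was 319.5, 316 and 310.3 CPM in NTC and 239, 224 and 250.3 CPM in Set7KD. All Set7KD libraries were below all NTC libraries. Set7KD differed from NTC on the log2 scale by -0.41 ± 0.05 (standard error; edgeR adjusted p = 3.57e-05).

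ANXA3, which encodes annexin A3, had a difference of about the same size but a wider spread. It was at 69.9, 79.1 and 61.4 CPM in NTC and 54.4, 62.4 and 45.8 CPM in Set7KD. The groups overlapped, because Set7KD replicate 2 was above NTC replicate 3. The change of -0.37 ± 0.13 (log2, standard error) did not pass, with an edgeR adjusted p of 0.0564. Within libraries of the same replicate number, Set7KD held 77.8, 78.9 and 74.6% of the NTC level, lower in 3 of 3 pairs. When replicate numbers entered as blocks the adjusted p was 3.41e-05, and with DESeq2 it was 0.00581. Leaving out NTC replicate 3 gave 0.0104 and leaving out Set7KD replicate 2 gave 0.0147, both past the threshold, and ANXA3 passed in 8 of 19 alternatives.

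**Figure D3:**
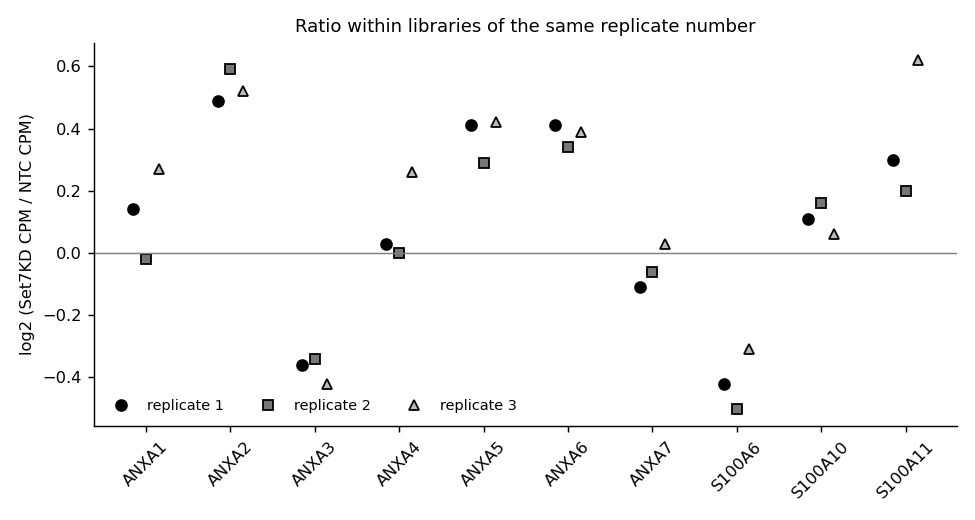
Log2 ratio of Set7KD CPM to NTC CPM for each member within libraries of the same replicate number (circle, square and triangle for replicates 1, 2 and 3), with the grey line at no difference. The 3 ratios of ANXA3 lie between -0.42 and -0.34 and those of S100A6 between -0.50 and -0.31, while those of ANXA1 run from -0.02 to 0.27.

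ANXA4, an annexin found mostly in epithelia, and ANXA7, also called synexin, had the smallest log2 fold changes. ANXA4 was at 73.3, 83.3 and 59.5 CPM in NTC and 74.9, 83.3 and 71.5 CPM in Set7KD. Its log2 fold change was 0.09 ± 0.12 (standard error; edgeR adjusted p = 0.604). ANXA7 was at 117, 119 and 116 CPM in NTC and 108, 114 and 118 CPM in Set7KD. Its log2 fold change was -0.05 ± 0.05 (standard error; edgeR adjusted p = 0.506). The groups overlapped for both genes. An exon of ANXA7 overlaps the antisense gene RP11-537A6.9, which was at 19.9 ± 1.58 CPM in NTC and 21.5 ± 2.02 CPM in Set7KD. The sources used here do not say whether the counting used strand.

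ANXA1, ANXA3 and ANXA4 shared an order of libraries that the groups do not give. In NTC and in Set7KD alike, replicate 2 was the highest library for all 3 genes, then replicate 1, then replicate 3. The highest NTC library was 1.37, 1.29 and 1.4 times the lowest for ANXA1, ANXA3 and ANXA4. For ANXA6, ANXA7, S100A6 and S100A10 this ratio was at most 1.06. In Set7KD the contrast was smaller except for ANXA3. There the ratio was 1.12, 1.36 and 1.16 for ANXA1, ANXA3 and ANXA4. It was 1.11, 1.09, 1.12 and 1.08 for ANXA6, ANXA7, S100A6 and S100A10. ANXA2 ran the other way, with replicate 3 highest and replicate 2 lowest in both groups. ANXA5 also kept its order, with replicate 2 highest and replicate 1 lowest in both.

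**Figure D4:**
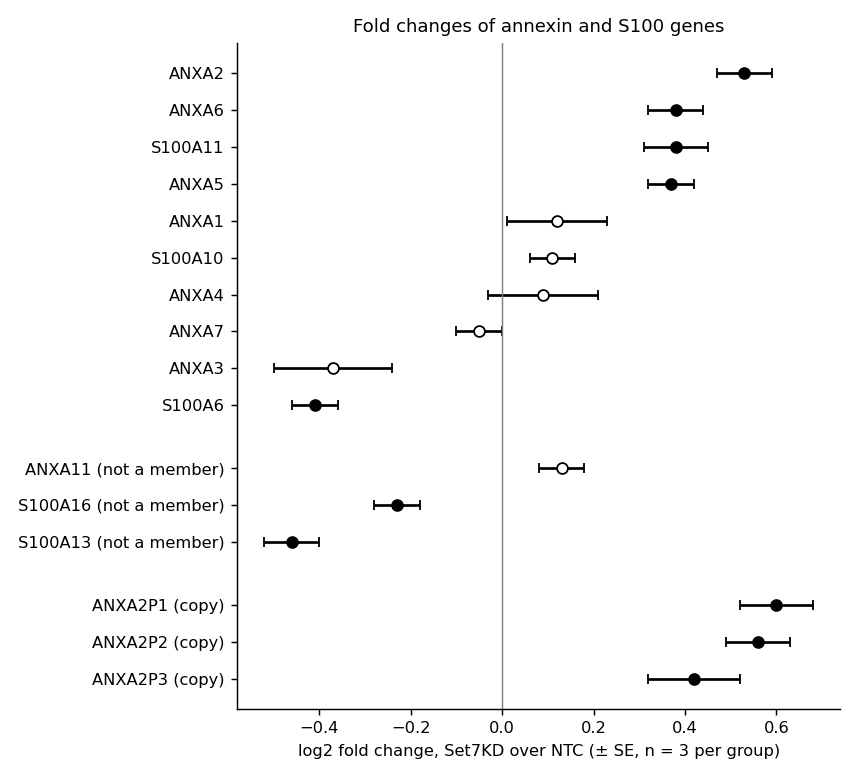
Log2 fold change of Set7KD over NTC with its standard error (n = 3 per group) for the 10 members, for ANXA11, S100A16 and S100A13, and for the 3 processed copies of ANXA2. Filled points passed edgeR's adjusted p of 0.05 and open points did not; ANXA2 is highest of the members at 0.53 and S100A6 lowest at -0.41.

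Per kilobase of transcript, the members fell into a group of 6 abundant genes and a group of 4 less abundant genes. Levels were divided by the median length of the annotated coding transcripts of each gene, so they are approximate. For ANXA2 only the reads on its own row were used. With its copies added it was at 959 rather than 584 CPM in NTC, so its place against S100A6 there depends on read assignment. With the ANXA2 row alone, S100A6 led in NTC at 469 ± 6.94 CPM per kilobase, before ANXA2 at 405 ± 29, ANXA5 at 287 ± 16.3 and S100A10 at 259 ± 2.61 (SD, n = 3). ANXA1 followed at 234 ± 36.1 CPM per kilobase, a range that took in S100A10, and S100A11 at 182 ± 11.1. ANXA6 stood at 55.7 ± 1.73, ANXA7 at 47.8 ± 0.743, ANXA3 at 46 ± 5.78 and ANXA4 at 34.2 ± 5.67 CPM per kilobase. The ranges of ANXA7 and ANXA3 also overlapped. Apart from S100A10 with ANXA1 and ANXA7 with ANXA3, neighbours in this order did not overlap. Part of the order depends on the length used. With the merged length of all exons, ANXA7 stood before ANXA6 in NTC (47.8 and 43.8 CPM per kilobase). ANXA1 and S100A11 were then at 183 and 182.

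In Set7KD the order at the top was different, again with the ANXA2 row alone. ANXA2 led at 584 ± 26.9 CPM per kilobase, before ANXA5 at 372 ± 3.70 and S100A6 at 353 ± 19.8, and the ranges of ANXA5 and S100A6 overlapped. ANXA1, at 254 ± 14.6, and S100A11, at 237 ± 23, overlapped as well. ANXA4, at 36.3 ± 2.88, and ANXA3, at 35.6 ± 5.43 CPM per kilobase, also overlapped. Summed without regard to length, the 7 annexins took 1722 to 1851 CPM in NTC and 2216 to 2229 CPM in Set7KD. The 3 S100 genes took 647 to 666 CPM in NTC and 617 to 650.3 CPM in Set7KD, with S100A6 lower and S100A11 higher. All 10 members together made up 0.242 to 0.254% of gene counts in NTC and 0.279 to 0.285% in Set7KD.

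Among the other genes of these families, 8 of 25 written names had a row. ANXA11, an annexin that binds S100A6, was at 195, 198 and 184 CPM in NTC and 216, 208 and 207 CPM in Set7KD. The groups did not overlap, but its log2 fold change of 0.13 did not pass (edgeR adjusted p of 0.0559, and 0.0184 with the replicate block). Of 6 tested S100 genes outside the set, 2 fell and 0 rose by edgeR, or 33.3%, against 36.2% of all genes tested. S100A13, which takes part in the export of fibroblast growth factor 1, fell from 87.7, 82.2 and 79.5 CPM to 61.9, 58.8 and 60.2 CPM, with a log2 fold change of -0.46 and an edgeR adjusted p of 2.49e-05. S100A16 fell from 123, 116 and 116 CPM to 98.4, 101 and 104 CPM, with a log2 fold change of -0.23 and an edgeR adjusted p of 0.00387. Without both libraries of replicate 1 the S100A16 call was lost (adjusted p of 0.145). S100A1, S100A2, S100A3 and S100A4 were each under 4 CPM in all libraries and did not pass. S100A8, S100A9, S100A14, S100B and S100P were among the S100 genes not analysed here.

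The S100 genes that fell lie in the same run of S100 genes on chromosome 1, and S100A11, which rose, lies outside it. RefSeq gene order on GRCh38.p14 places S100A10 and S100A11 next to each other, with 52 coding genes between S100A11 and S100A6. S100A6 is followed by S100A5, S100A4, S100A3, S100A2, S100A16, S100A14, S100A13 and S100A1. Of the 7 tested genes from S100A6 to S100A1, 3 fell, S100A6, S100A16 and S100A13, and these were the 3 above 4 CPM. Among all genes tested 18.6% fell. The next genes were mixed. CHTOP (-0.16), SNAPIN (-0.61) and INTS3 (-0.15, all log2 fold changes) fell, and ILF2 rose with 0.24. On the other side IVL rose with 1.71, from 0.413 to 1.37 CPM. This view by position was chosen after the values of the S100 genes were seen, and no test of position was made.

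**Figure D5:**
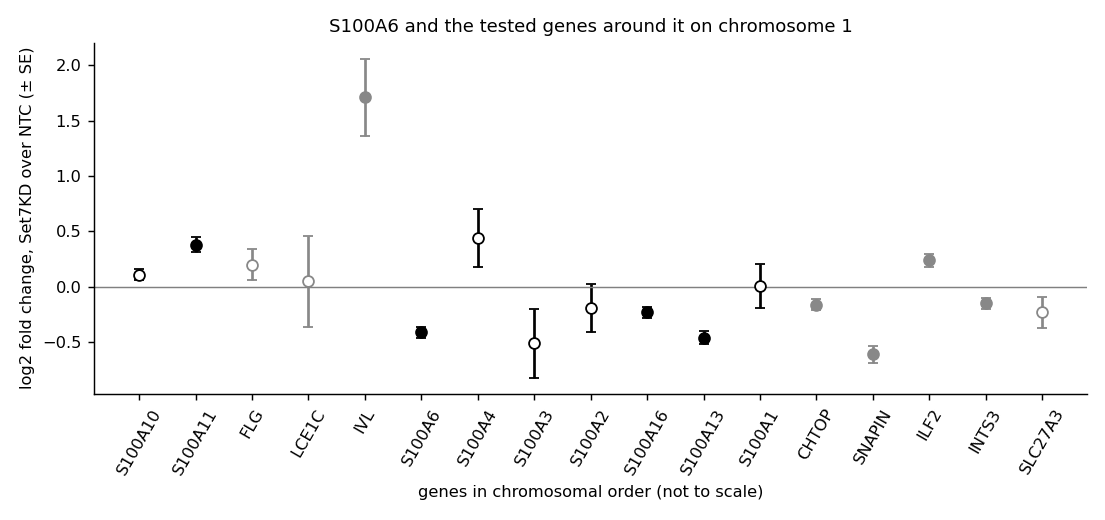
Log2 fold change of Set7KD over NTC with its standard error (n = 3 per group) for the tested genes from S100A10 to SLC27A3, in their order on chromosome 1 but not to scale, with S100 genes in black and others in grey. Filled points passed edgeR's adjusted p of 0.05; S100A6, S100A16 and S100A13 are filled and below the line, S100A11 is filled and above it.

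The promoters of the member with the largest rise and of the member that fell are shown because they are the opposite ends of the set. Each runs from 250 bases before to 50 bases after the RefSeq start on GRCh38.p14, 5′ to 3′ on the minus strand. Capitals mark the TATA box TATAAA, the AP-1 core written TGANTCA (any base at N) and the GC box GGGCGG, searched on both strands, and overlapping matches run together.
ANXA2, chr15:60397937-60398236: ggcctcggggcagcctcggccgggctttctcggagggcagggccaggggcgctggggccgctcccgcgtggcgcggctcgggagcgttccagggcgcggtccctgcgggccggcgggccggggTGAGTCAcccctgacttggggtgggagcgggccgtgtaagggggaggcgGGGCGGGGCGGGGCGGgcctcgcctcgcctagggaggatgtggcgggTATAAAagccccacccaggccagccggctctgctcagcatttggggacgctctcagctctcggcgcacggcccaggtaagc
S100A6, chr1:153535942-153536241: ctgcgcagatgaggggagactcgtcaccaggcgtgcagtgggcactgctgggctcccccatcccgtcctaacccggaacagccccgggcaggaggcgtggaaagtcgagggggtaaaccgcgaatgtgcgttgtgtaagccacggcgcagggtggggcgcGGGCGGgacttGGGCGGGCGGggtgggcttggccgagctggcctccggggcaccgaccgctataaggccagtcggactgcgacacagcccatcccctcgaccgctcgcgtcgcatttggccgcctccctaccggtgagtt

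The ANXA2 window holds TATAAA and TGANTCA once each and GGGCGG at 3 places, and the S100A6 window holds GGGCGG at 3 places and neither of the others. Only these exact strings were counted. The S100A6 window does hold TATAAG, which differs from TATAAA in its last base. A promoter was found in RefSeq for all 10 members. TATAAA occurred in 2 of them, ANXA1 and ANXA2, and in 12% of 27305 promoters of the same length. TGANTCA occurred in ANXA2 alone of the members and in 7.76% of all promoters. GGGCGG occurred in 8 of 10 members, all but ANXA1 and ANXA3, and in 44.6% of all promoters. These matches are letters in a window and were not tested for binding.

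Genes of plasminogen activation, the system that the annexin A2 heterotetramer serves at the cell surface, moved in both directions. Of 8 tested, 3 rose and 3 fell by edgeR, with a median log2 fold change of -0.14. The share that passed was 75%, against 36.2% of all genes tested. PLAU, the urokinase gene, fell from 221, 227 and 183 CPM to 142, 166 and 126 CPM (log2 fold change of -0.54, edgeR adjusted p of 0.011). CTSB, the protease cathepsin B, which binds the heterotetramer, fell from 491, 503 and 477 CPM to 335, 348 and 337 CPM (log2 fold change of -0.53). PLGRKT, a transmembrane plasminogen receptor, fell with a log2 fold change of -0.62. SERPINE2, the serine protease inhibitor protease nexin 1, rose from 119, 115 and 138 CPM to 278, 234 and 295 CPM, with a log2 fold change of 1.12. ENO1, the glycolytic enolase that also binds plasminogen, rose by 0.15 on the log2 scale, and this call was lost without any single library other than Set7KD replicate 2, with adjusted p of up to 0.148, and under the filter of 50 counts (0.0505). PLAT, the tissue plasminogen activator gene, was at 165 ± 9.78 CPM in NTC and 153 ± 4.58 CPM in Set7KD, which did not pass (edgeR adjusted p of 0.13). Without both libraries of replicate 1 the PLAU and PLGRKT calls were lost, with adjusted p of 0.0997 and 0.114.

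Among binding partners and receptors of the members, 5 of 11 tested genes rose and 0 fell by edgeR, with a median log2 fold change of 0.08. The share that passed was 45.5%, against 36.2% of all genes tested. CACYBP, the calcyclin-binding protein, rose from 70.9, 75.7 and 72.1 CPM to 87.3, 99.4 and 82 CPM (log2 fold change of 0.30, edgeR adjusted p of 0.00326), in the direction opposite to S100A6. This call was lost without both libraries of replicate 1 (adjusted p of 0.0666). SUGT1, a co-chaperone that binds S100A6, rose from 33.6, 32.4 and 33.9 CPM to 41.3, 41.8 and 42.5 CPM, a log2 fold change of 0.33. DLC1, whose product binds S100A10, rose with a log2 fold change of 0.21, which did not pass without Set7KD replicate 1 (adjusted p of 0.0687). KCNK3, a potassium channel carried to the membrane by S100A10, was near the detection limit at 0.412 ± 0.253 CPM in NTC and 1.55 ± 0.461 CPM in Set7KD, with a log2 fold change of 1.89 and an edgeR adjusted p of 0.00123. Without NTC replicate 1 its log2 fold change was 2.50. SRI, the calcium-binding protein sorcin, which binds annexin A7, was at the threshold with a log2 fold change of 0.17 and an edgeR adjusted p that rounds to 0.05, just under it, and passed in 7 of 19 alternatives. With all libraries kept it did not pass under DESeq2 (0.104), limma-voom (0.0521) or upper-quartile scaling (0.0503). It was also lost without NTC replicate 1, NTC replicate 2, Set7KD replicate 1 or Set7KD replicate 3, with adjusted p of up to 0.185. AHNAK, the large scaffold that binds the heterotetramer, was the most abundant of the list at 2545 ± 235 CPM in NTC and 2681 ± 274 CPM in Set7KD, which did not pass (adjusted p of 0.509). HLTF, a chromatin protein that binds the heterotetramer, had a log2 fold change of -0.15 with an adjusted p of 0.0686, and of 0.0319 with the replicate block. FPR1, FPR2 and FPR3, the formyl peptide receptors through which annexin A1 acts, were not analysed here.

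Of 18 tested genes of membrane repair and phosphatidylserine exposure, 8 rose and 2 fell by edgeR, with a median log2 fold change of 0.02. The share that passed was 55.6%, against 36.2% of all genes tested. DYSF and MYOF, which encode the related ferlins dysferlin and myoferlin, moved in opposite directions. DYSF fell from 281, 254 and 235 CPM to 126, 128 and 103 CPM, a log2 fold change of -1.11 with an edgeR adjusted p of 1.37e-05. MYOF rose from 348, 363 and 368 CPM to 470.0, 419.9 and 467 CPM, a log2 fold change of 0.33. The scramblase genes PLSCR4 and ANO6 rose with log2 fold changes of 0.73 and 0.26, and CAPN2, the large subunit of the calcium-dependent protease m-calpain, with 0.33. TSG101, a subunit of the ESCRT machinery, fell with a log2 fold change of -0.46. PLSCR4 went from 102, 122 and 93.3 CPM to 172, 183 and 173 CPM. Without both libraries of replicate 1 the calls of MYOF and ANO6 were lost, with adjusted p of 0.0505 and 0.0795.

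Of 17 tested genes of Weibel-Palade body exocytosis, 2 rose and 5 fell by edgeR, with a median log2 fold change of -0.09. The share that passed was 41.2%, against 36.2% of all genes tested. RAB3B and RAB27A, small GTPases of these granules, rose with log2 fold changes of 0.24 and 0.33. CD63, a granule membrane protein, fell from 308, 308 and 299 CPM to 257, 268 and 234 CPM, a log2 fold change of -0.27. UNC13D, the tether reported to act with annexin A2 and S100A10 in this release, fell from 1.1 ± 0.444 CPM to 0.305 ± 0.159 CPM, close to the detection limit (edgeR adjusted p of 0.00409). VAMP8, a vesicle SNARE, also stood low, at 1.96 ± 0.693 CPM in NTC and 0.794 ± 0.217 CPM in Set7KD. It fell with a log2 fold change of -1.29. Without both libraries of replicate 1 the calls of RAB3B, RAB27A and CD63 were lost (adjusted p of 0.113, 0.0714 and 0.0575), and without both of replicate 2 that of VAMP8 (0.0758). In all, 65 genes of the lists were tested, and 21 rose and 12 fell, or 50.8%, against 36.2% of all genes tested. The 21 include the 3 ANXA2 copies, which share sequence with the member ANXA2 and were singled out after values were seen. The share is therefore a description only.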

How the data were processed

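Poly-A RNA-seq libraries of 6 HMEC-1 cultures were analysed, 3 Set7KD and 3 NTC, grouped by sample title. The series' design text calls them biological triplicates; nothing says how the cultures were separated, so p-values may reflect technical spread alone. The authors deposited raw read counts per gene as a single table. BWA, bedtools and hg19 appear, without versions, in the submitters' processing notes. The final row, reads outside annotated genes, held 55.6 to 56.1% of each library's counts and was left out. The sources used here do not say how reads with several matches were counted.

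The test was edgeR 4.0.16's robust quasi-likelihood test under R 4.3.3, with group as the single factor, after filterByExpr and TMM scaling, with Benjamini-Hochberg adjustment over 18482 genes. The standard error is the absolute log2 fold change over the square root of F. The script was tested on simulated data. Promoters came from RefSeq (GRCh38.p14), and transcripts, lengths and overlaps from GENCODE 29, matched by symbol or Ensembl identifier. Alignments used Biopython 1.88. The counts' build differs, so the only coordinates given are those of the RefSeq promoter windows.

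The members and lists were chosen with earlier results of these data known. All members are named, with SETD7, up to 6 genes of smallest p per list, and list members that did not pass. CDH5 and VWF are named as defining markers of the cell type, and COL1A1 and TAGLN for their part in the marker sums. KDR and TEK are named as the endothelial markers that rose, and ACTG2 and CNN1 as the other smooth muscle markers that rose. Some list genes that the rule would name are counted but not reported here by name. ANXA2's copies and the neighbours of S100A6 by position were singled out after values were seen.

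Deviations from group means correlated at 0.304, 0.421 and 0.341 between libraries of the same number (11151 genes whose mean reached 10 CPM) and at -0.36 to -0.04 otherwise. The numbers were therefore taken to pair the libraries, from the data and not from a label. The main fit did not use this pairing. With it as a block, 5 members rose and 2 fell, and 3826 of all genes rose and 4090 fell. Within a group, chi-square per degree of freedom between libraries was 2.95 to 9.77, so none was a duplicate. Alternatives were RLE and upper-quartile scaling, other filters, the replicate block, DESeq2 1.42.0, limma-voom (limma 3.58.1), a minimum fold of 1.2, an adjusted p under 0.01, leaving out libraries and, added after the data were seen, summing the copies with their parent gene.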

Additional observations from a re-analysis of the deposited data

How the results depend on the processing

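Over 19 alternatives, ANXA2 and S100A6 passed in all, and ANXA5, ANXA6 and S100A11 in all but the test against a fold of 1.2. ANXA3 passed in 8 of 19. The count of lower members was 2, with ANXA3, under upper-quartile scaling, the filter of 50 counts, the replicate block, DESeq2, and without both libraries of replicate 2 or of replicate 3. With any single library left out, 4 to 5 members were higher and 1 to 2 lower, and the SETD7 log2 fold change lay between -2.71 and -2.31. Against a fold of 1.2, 1 member was higher, and of the other list genes 6 were higher and 7 lower; without both libraries of replicate 1 the list genes gave 9 and 7. With 1 library or both of a replicate number left out, 9 to 21 list genes were higher and 7 to 14 lower. Over all genes the counts were 3250 higher and 3440 lower, 903 and 1314 against a fold of 1.2, 2103 and 2197 at an adjusted p under 0.01, and 1414 and 1562 without both replicate 1 libraries. The log2 fold change of ANXA4 ran from -0.0322 without NTC replicate 3 to 0.2052 without NTC replicate 2, and that of AHNAK from -0.0079 without both replicate 1 libraries to 0.1651 without both of replicate 3. Fewer libraries or a stricter test were used in these cases; the cause was otherwise not tested. With the replicate block, S100A10 and ANXA3 changed call among the members (adjusted p of 0.0457 and 3.41e-05), as did ANXA11 and HLTF. No other member did; the marker genes, S100A1 to S100A4 and the neighbours of the S100 genes were not compared under the block. Depth limits KCNK3, UNC13D and VAMP8, which are near 1 CPM, and not the members.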
